A study of Mus musculus with 22 samples.

Results

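The genes described here are 10 members of the integrated stress response and the unfolded protein response: Atf4, Atf3, Ddit3, Chac1, Trib3, Asns, Sesn2, Ppp1r15a, Xbp1 and Hspa5. They were chosen by name, and each symbol was matched in GENCODE M21 (mouse genome GRCm38) to 1 of the 55487 gene identifiers listed in the deposited tables. The cells were mouse embryonic stem cells of a Dux-/- line, maintained in 2iLIF medium, each carrying a transgene for mCherry, a red fluorescent protein, by itself or fused to a full or altered DUX protein. DUX binds DNA through homeodomains and activates the gene program of the 2-cell embryo. All groups received doxycycline, at 0.25 ug/mL for 12 hours after a recovery of 24 hours, so the mCherry cells were exposed to the drug as well. Poly(A) RNA was sequenced from 500 ng of total RNA per sample.

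The chimera table holds 7 groups: FL, which is mCherry on full-length DUX, C3+14, C1C3a, C1C3b, C1C3c, C1+14 and mCherry alone. The deletion table holds 4 groups: the same FL libraries, C12345delt14, deltC12345+14 and deltC12345delt14. The labels do not spell out C1 to C5 or 14, and delt is read here as a deletion. They also do not say what separates C1C3a, C1C3b and C1C3c, whether each construct is carried by 1 clone, or whether replicates came from separate cultures. Each group has 2 replicates, so p-values measure only the spread between these samples, which may be technical. The tables were scaled separately, and mCherry, which is in the chimera table, is compared with constructs of that table alone.

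In the integrated stress response, kinases that sense amino acid shortage, misfolded protein in the endoplasmic reticulum, haem shortage or double-stranded RNA phosphorylate the translation factor eIF2. General translation falls while the Atf4 message is translated better, and the ATF4 protein then activates genes for amino acid supply, for redox balance and, when stress lasts, for cell death. The unfolded protein response adds further branches, in which the sensor IRE1 splices the Xbp1 message and ATF6 raises chaperones such as Hspa5. Because ATF4 is controlled largely at translation and XBP1 by splicing, the reads counted here report transcript levels and not the activity of either factor.

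Promoter sequence is shown for the members whose 250 bases upstream of the RefSeq start hold a textbook element of these pathways, because their levels moved in different directions. RefSeq windows (GRCm38.p6) were found for 10 of 10 members. The C/EBP-ATF response element, searched as TGATGNAA on both strands, occurred in 3 members and in 3.45% of 32851 windows. The endoplasmic reticulum stress element, searched as CCAAT and CCACG with 9 unspecified bases between them on both strands, occurred in Hspa5 and in 0.113% of windows. The DUX motif, searched as TGATT and AATCA with 1 unspecified base between them, which reads the same on both strands, occurred in 0 members and in 0.0304% of windows. No 2 of the matches overlapped. Capitals mark the match in the stretches below, given 5′ to 3′ on the strand of the gene, for Atf3 (chr1:191183341-191183583, minus strand), Chac1 (chr2:119350992-119351228, plus strand), Asns (chr6:7693214-7693243, minus strand) and Hspa5 (chr2:34772020-34772048, plus strand).
Atf3: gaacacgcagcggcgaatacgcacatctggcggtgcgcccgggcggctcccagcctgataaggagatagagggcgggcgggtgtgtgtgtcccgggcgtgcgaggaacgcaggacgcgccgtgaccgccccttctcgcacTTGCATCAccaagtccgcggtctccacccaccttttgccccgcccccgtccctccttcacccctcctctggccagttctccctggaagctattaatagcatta
Chac1: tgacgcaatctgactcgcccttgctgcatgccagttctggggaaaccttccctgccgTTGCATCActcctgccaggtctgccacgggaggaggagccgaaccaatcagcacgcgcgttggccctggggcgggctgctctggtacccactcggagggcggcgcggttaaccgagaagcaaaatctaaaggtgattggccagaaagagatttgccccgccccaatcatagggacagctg
Asns: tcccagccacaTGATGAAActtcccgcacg
Hspa5: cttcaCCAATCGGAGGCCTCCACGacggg
A match is a description of the letters and not a measured binding site. The Asns and Hspa5 matches, although upstream of the RefSeq start, lie in an annotated exon. Relative to mCherry and with the authors' scaling, Chac1 was called lower in 5 constructs and Asns higher in 3. Atf3 was called lower in FL and higher in C3+14, and Hspa5 was called in none. Total read scaling changed some of these calls, as given for each gene below, and left Asns higher in C3+14 alone.

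Libraries held between 21059953 and 40448890 reads. They fell into 2 kinds by how many of their reads were in 1656 genes of high copy number: 1.89% to 2.89% in type A, and 0.457% to 0.600% in type B. Both mCherry and both C3+14 libraries are type B, as are deltC12345+14 replicate 2 and deltC12345delt14 replicate 1, and the others are type A. Of the comparisons with mCherry, that of C3+14 is therefore the one within a library type, and for the other constructs type and construct cannot be told apart. The authors' size factors also gave FL a mean total of 42381386 normalised reads and mCherry 20566517. Scaling to total reads instead moved the median log2 difference of all genes between FL and mCherry from 0.09 to -0.87. Its values are given beside some of the genes whose calls it changed. Embryonic stem cell markers were present in every library, and 6 of 8 were called lower in FL than in mCherry. The summed level of 6 markers of 2-cell-like cells was 1 normalised read in each mCherry library, with Zscan4c, Zscan4d, Zfp352, Tcstv1 and Tcstv3 at 0, and 725112 and 1355140 in FL. In bulk RNA, fewer cells of a type and less RNA per cell cannot be told apart.

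Atf4 encodes the transcription factor at the centre of the pathway (chromosome 15, 80255184 to 80257541). It had 5781 and 5673 normalised reads in mCherry, the authors' counts divided by 1 size factor per library. In FL it had 838 and 876, in C1C3b 739 and 835, and in C1C3c 1587 and 754. The remaining constructs had means between those of these groups and that of mCherry: C1C3a had 1653 and 1941, C3+14 1763 and 1808, and C1+14 1269.7 and 1860.3. The C1+14 libraries overlapped those of C1C3c. Every construct library lay below both mCherry libraries, and Atf4 was the member called lower than mCherry for all 6 constructs, under each scaling tried. A gene was called where limma's adjusted p over all genes tested was under 0.05 and its log2 fold change was at least 1 in either direction, on values with a pseudocount of 1. The mean in mCherry was 6.68 times that in FL, a log2 fold change for FL of -2.74 (SE 0.26, adjusted p 1.34e-06). In C3+14, the construct of the same library type as mCherry, the change was -1.68 (SE 0.26, adjusted p 9.82e-05). Between neighbours in the order of group means the step from mCherry to C1C3a was called, and the steps below it, down to C1C3b, were not.

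Atf3, a stress-induced repressor of the same family (chromosome 1, 191170296 to 191218039), was a low gene with a different order. FL had 17.7 and 17.9 normalised reads, C1C3c 22.6 and 21, and C1+14 19 and 24.8. mCherry had 48.2 and 37.7, C1C3b 61.4 and 44.1, C1C3a 62.0 and 35.4, and C3+14 101 and 74.5. The C3+14 libraries were above, and the FL libraries below, those of every other group. The fall in FL relative to mCherry was -1.22 (log2, SE 0.38, limma adjusted p 0.0141), and without mCherry replicate 1 it was -1.05 at an adjusted p of 0.0988. The rise in C3+14 was 1.00 (SE 0.38, adjusted p 0.0346), which is at the fold threshold. That call was lost without any 1 of the 4 libraries (values from 0.79 to 1.22), and under total read scaling the difference was 0.23. The difference between C3+14 and FL was 2.22 (SE 0.38, adjusted p 0.00055). No neighbouring step in the order of the 7 means was called.

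Ddit3 encodes CHOP, a factor associated with cell death under prolonged stress (chromosome 10, 127290774 to 127296288). Its values were 60.4 and 105 in FL, 141 and 127 in C1C3a, 185 and 239 in C1+14, and 203 and 229.9 in mCherry. They were 196 and 246 in C1C3b, 334 and 231 in C1C3c, and 369 and 324 in C3+14. FL was lowest, below every other library, and C3+14 had the highest mean. Ddit3 fell in FL relative to mCherry by 1.43 (log2 units, SE 0.27, adjusted p 0.00054) and with the authors' scaling was not called against mCherry for any other construct. Total read scaling called it lower in C1C3a, from -0.69 to -1.60, and moved the difference in C3+14 from 0.67 to -0.11. C3+14 exceeded FL by 2.10 (SE 0.27, adjusted p 6.54e-05). A second identifier named Ddit3 overlaps it and shares 3.27% of its 50-base words, but had 0 reads in every library. Exons of Mars1 and Gm4189 overlap it on the opposite strand, and Mars1 is abundant, with 8087 and 8012 normalised reads in FL. The kit was a stranded one, but the strand setting of the counting is not given in the sources used here, so reads of the genes cannot be told apart where they overlap.

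Chac1 (chromosome 2, 119351229 to 119354381) encodes a glutathione-degrading enzyme and is a direct ATF4 target. Among the members, it had the largest log2 change from mCherry in every construct except FL. In FL the changes of Trib3 (-3.08), Atf4 (-2.74), Xbp1 (-2.03) and Sesn2 (-1.88) were larger. Chac1 had 153 and 162 normalised reads in mCherry and 30.9 and 89.3 in FL. C1C3a had 46.5 and 34.0, C3+14 13.4 and 14.6, and C1C3c 32.4 and 6.76. C1C3b had 7.02 and 11.3, and C1+14 3.65 and 14.9. All 12 construct libraries were below both mCherry libraries. Replicates of this gene also differed most, by up to 4.79 times in C1C3c, against at most 1.11 times for Hspa5 in the same table. The log2 fold change from mCherry was -4.20 in C1+14 (SE 0.72, adjusted p 0.000885), -4.00 in C1C3b (adjusted p 0.000358), -3.40 in C3+14 (adjusted p 0.0011) and -3.30 in C1C3c (adjusted p 0.0024). In C1C3a it was -1.96 (adjusted p 0.03), a call lost without any 1 of the 4 libraries, with values from -2.18 to -1.74. In FL it was -1.56 and not called (SE 0.72, adjusted p 0.0771), and without FL replicate 2 it was -2.31 at an adjusted p of 0.0341. It was called in FL also with total read scaling (-2.57), with edgeR (-1.52) and with a pseudocount of 8 (-1.43). The C1C3a call was lost with a pseudocount of 0.1 or no filter, and the C1C3c call with only the compared groups fitted (adjusted p 0.0639). FL exceeded C1+14 by 2.64 (adjusted p 0.00697), which was lost without FL replicate 2 (1.89, adjusted p 0.0777) or without C1+14 replicate 1 (1.76, adjusted p 0.0874), and with only the compared groups fitted (adjusted p 0.0778).

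Trib3, a pseudokinase that feeds back on ATF4 (chromosome 2, 152337422 to 152344032), was also highest in mCherry, at 538 and 548 normalised reads. FL had 39.8 and 101, the lowest pair. C1C3b had 170.1 and 212, C3+14 219 and 236, C1C3c 401 and 193, C1+14 289 and 327, and C1C3a 411 and 269. The mean in mCherry was 7.71 times that in FL, a log2 fold change of -3.08 (SE 0.39, limma adjusted p 1.79e-05). It fell by 1.51 in C1C3b (adjusted p 0.00466) and by 1.25 in C3+14 (adjusted p 0.0133). The C3+14 call was lost without C3+14 replicate 1, mCherry replicate 1 or mCherry replicate 2, with values of -1.20, -1.26 and -1.24. The changes of -0.96 in C1C3c, -0.82 in C1+14 and -0.71 in C1C3a were not called, although total read scaling gave -1.62 in C1C3a, which was. Without C1C3c replicate 1 that of C1C3c was -1.49 at an adjusted p of 0.0145. The step from C1C3b down to FL was the 1 neighbouring step called.

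Asns encodes asparagine synthetase, another direct ATF4 target (chromosome 6, 7675169 to 7693254), and was highest in other groups. C3+14 had 50541 and 48978 normalised reads, C1C3a 38654 and 38814, and FL 25164 and 26391. C1C3b had 17331 and 14749, C1C3c 13961 and 12726, mCherry 11455 and 11132, and C1+14 8569 and 12199.9. The libraries of C3+14, C1C3a and FL did not overlap each other or any other group. The log2 fold change from mCherry was 2.14 in C3+14 (SE 0.14, adjusted p 4.49e-08), 1.78 in C1C3a (adjusted p 2.25e-07) and 1.19 in FL (adjusted p 1.17e-05). The FL value depends on the scaling. As CPM, reads scaled to the library total, Asns was 531 and 706 in FL and 556 and 542 in mCherry, and total read scaling gave 0.16. The rise in C3+14 was called there too, at 1.35, and that in C1C3a was not, at 0.86.

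Sesn2, a leucine sensor and regulator of mTORC1 that p53 and ATF4 both induce (chromosome 4, 132492032 to 132510501), set FL apart from the rest. FL had 933 and 1178 normalised reads and C1C3c 1875 and 1868. The others lay between 3084 and 4886: C1C3b 3084 and 3584, C1+14 3998 and 3448, mCherry 3839 and 3865, C1C3a 4594 and 3400.5, and C3+14 4453 and 4886. FL was below every other library. Sesn2 fell in FL relative to mCherry by 1.88 (log2 units, SE 0.16, limma adjusted p 3.25e-07) and in C1C3c by 1.04 (adjusted p 0.000161). The C1C3c value was under the fold threshold with quantile, TMM or total read scaling (-0.99, -0.99 and -0.85) and with edgeR (-0.99). Against mCherry, the 2 SE intervals of the log2 difference ran from -0.03 to 0.59 for C3+14 and from -0.36 to 0.26 for C1+14.

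Ppp1r15a encodes GADD34, the phosphatase subunit that reverses eIF2 phosphorylation (chromosome 7, 45522916 to 45526268), and Tulp2 overlaps it by 12 bases on the opposite strand. It had 2574 and 2446 normalised reads in C1C3a, 2155 and 2125 in C3+14, and 1622 and 1490.4 in FL. C1C3b had 1105 and 925, mCherry 765 and 797, C1C3c 693 and 703, and C1+14 519 and 562. The 7 groups followed each other without overlap, although 0 neighbouring steps reached the fold threshold. It rose in C1C3a by 1.68 (log2, SE 0.12, adjusted p 6.64e-08) and in C3+14 by 1.45 (adjusted p 3.27e-07) relative to mCherry. In FL the difference of 0.99 (adjusted p 1.21e-05) was just under the threshold, and passed it without FL replicate 2 (1.05) or without mCherry replicate 2 (1.02). Total read scaling gave -0.04 for FL, 0.77 for C1C3a and 0.67 for C3+14, none of them called.

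Xbp1 encodes the transcription factor of the IRE1 branch (chromosome 11, 5520659 to 5525893), and its spliced and unspliced forms were counted together. It had 1694 and 1658 normalised reads in mCherry and 1205 and 1229.7 in C1+14. C1C3c had 678 and 415, C1C3a 483 and 497, C3+14 426 and 549, FL 405 and 417, and C1C3b 208 and 304. The mCherry and C1+14 libraries were above all others. Xbp1 fell relative to mCherry in 5 constructs, from -1.66 in C1C3c (SE 0.22, adjusted p 7.37e-05) to -2.73 in C1C3b (SE 0.22, adjusted p 4.14e-07). FL was at -2.03 (adjusted p 4.97e-06). The difference for C1+14 was -0.46 (adjusted p 0.139), with a 2 SE interval from -0.91 to -0.01.

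Hspa5 encodes BiP, the main chaperone of the endoplasmic reticulum (chromosome 2, 34771970 to 34777547). It had 18494 and 19348 normalised reads in C3+14, 17381 and 19308 in C1C3b, and 16349.5 and 15799.5 in mCherry. C1C3c had 12658 and 12957, C1+14 10734 and 10916, C1C3a 10236 and 9690.3, and FL 9385 and 9958. With the authors' scaling C3+14 and C1C3b were the high groups and FL and C1C3a the low ones. Relative to mCherry, C3+14 was at 0.24 (log2) on that scale, but at -0.70 with quantile and -0.55 with total read scaling. No pair of the 21 was called, because the widest difference between group means, 0.97 on the log2 scale between C3+14 and FL, was under the fold threshold, while the adjusted p of limma's F test was 1.34e-06. For FL against mCherry the difference was -0.73 (SE 0.10, adjusted p 2.42e-05). Total read scaling gave -1.77 there and -1.61 for C1C3a, both called.

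**Figure D1:**
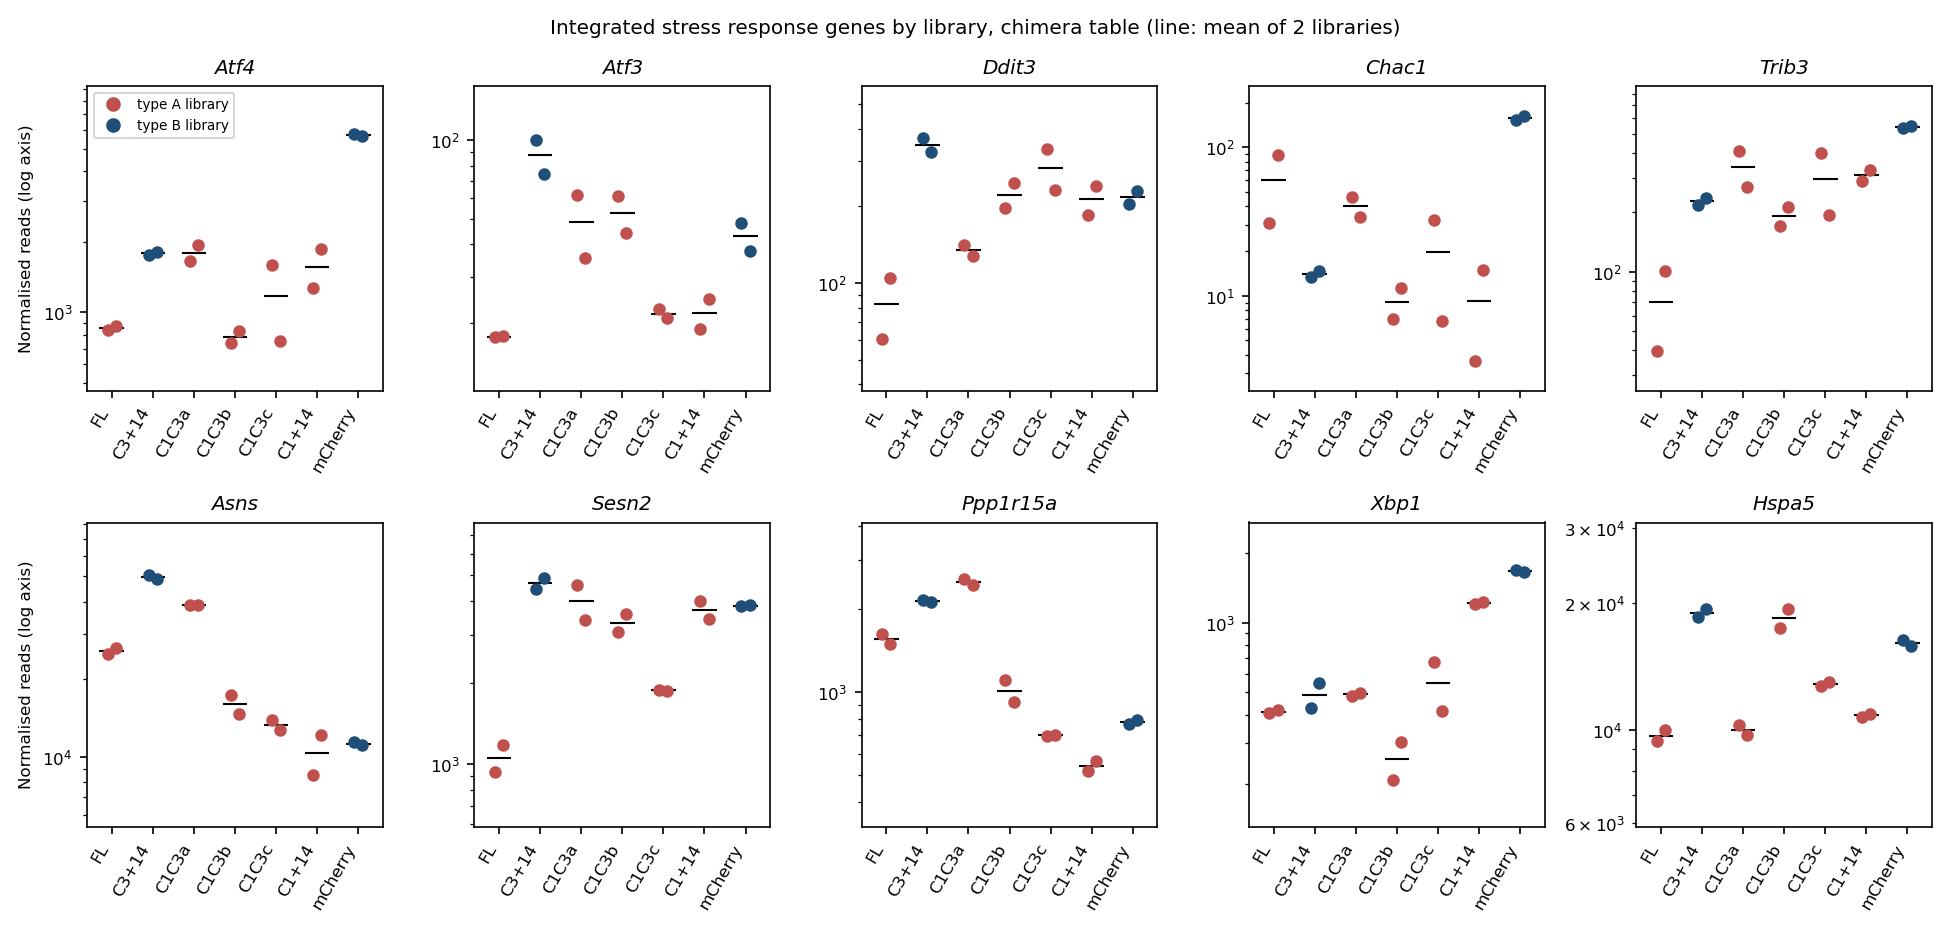
Normalised reads of the 10 genes (log axis) in the 14 libraries of the chimera table, by construct; points are libraries, coloured by library type, and lines are means of 2. Atf4, Chac1, Trib3 and Xbp1 are highest in mCherry, and Asns is highest in C3+14 at 50541 and 48978.

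FL and C3+14 each had 7 of the 10 genes called against mCherry, C1C3a 5, C1C3b 4, C1C3c 4 and C1+14 2. Over all 21584 genes tested, the shares called were 44.2% for FL, 47.3% for C3+14, 46.4% for C1C3a, 44.7% for C1C3b, 28.8% for C1C3c and 18.3% for C1+14. The shares of the 10 genes called in C1C3a, C1C3b and C1+14 were close to these, and that in C1C3c was not far above. Counted in either direction, the calls of these 4 constructs say nothing particular to the pathway. The splits by direction, given next, were not tested. In FL 1 was higher and 6 lower, beside 24.5% and 19.6% of all genes. In C3+14 3 were higher and 4 lower, beside 29.6% and 17.7%, and in C1C3a 2 and 3, beside 27.4% and 19%. In C1C3b 0 were higher and 4 lower, beside 27.6% and 17.1%, in C1C3c 0 and 4, beside 18.3% and 10.5%, and in C1+14 0 and 2, beside 12.4% and 5.95%. With total read scaling the splits were 0 and 8 for FL, 1 and 4 for C3+14, and 0 and 6 for C1C3a. That scaling also moved the median of all genes, to -0.87, -0.52 and -0.74. These splits therefore cannot be set beside the shares above. With the authors' scaling the median log2 difference of the 10 genes in FL was -1.50, beside 0.09 over all genes. That in C3+14 was 0.26 beside 0.23. The comparisons share the mCherry libraries, so the likeness of Atf4 and Chac1 across constructs is no independent repetition. Limma's F test across all groups called 9 of the 10, beside 80.4% of all genes.

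**Figure D2:**
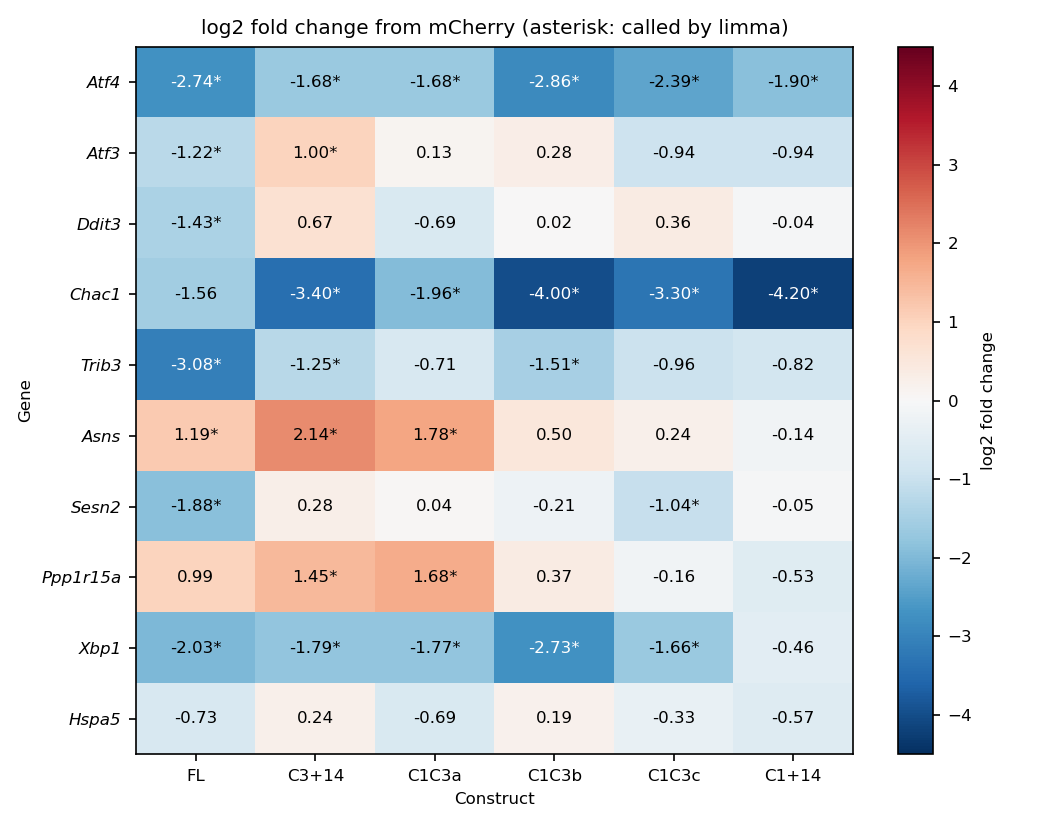
Log2 fold change of each gene (rows) from mCherry in each construct (columns), with the value in each cell; an asterisk marks a call by limma. Atf4 is lower in all 6 columns, from -1.68 to -2.86, whereas Asns runs from -0.14 in C1+14 to 2.14 in C3+14.

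C3+14 was also set against FL directly. Relative to FL, C3+14 had higher Atf3 (2.22), Sesn2 (2.15), Ddit3 (2.10), Trib3 (1.83) and Atf4 (1.06) on the log2 scale, 5 of 10 called beside 26.3% of all genes. The adjusted p ran from 4.52e-07 for Sesn2 to 0.0061 for Atf4. Chac1 went the other way at -1.84 (adjusted p 0.057), and without FL replicate 1 it was -2.59 at an adjusted p of 0.0347. Asns was higher by 0.95 and Hspa5 by 0.97, both just under the fold threshold. Total read scaling gave 1.19 and 1.21 for these genes, and called 7 of the 10 higher and 0 lower. The median of all genes was 0.31 with that scaling. Without FL replicate 2 Hspa5 was at 1.01, and without C3+14 replicate 1 it was at 1.00. EdgeR called 8 of the 10 genes, beside 5267 of all 21584 genes tested. Quantile scaling put Atf4 at 0.93, under the threshold. C3+14 libraries are type B and FL libraries type A, and their part in these differences was not tested.

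The C1-based chimeras were also set against C1+14, a comparison within type A. C1C3a had 5 genes called, beside 40.8% of all genes: Ppp1r15a rose by 2.21 (SE 0.12, adjusted p 5.51e-09), Chac1 by 2.24 (adjusted p 0.0171), Asns by 1.92 (adjusted p 1.48e-07) and Atf3 by 1.08 (adjusted p 0.028), and Xbp1 fell by 1.31 (adjusted p 0.000249). The Chac1 call was lost without C1C3a replicate 1 (2.02) or C1+14 replicate 1 (1.36), and the Atf3 call likewise (0.68 and 0.89). Quantile and total read scaling also ended the calls of Asns (0.55 and 0.79) and Chac1 (1.59 and 1.20). C1C3b had 2 called, beside 28.9%: Xbp1 at -2.27 (adjusted p 5.83e-06) and Atf3 at 1.22 (adjusted p 0.0191). This Atf3 call was lost without C1C3b replicate 1 (0.99) or C1+14 replicate 1 (1.04), with quantile or total read scaling (0.85 and 0.93), and with only the compared groups fitted (adjusted p 0.0751). Atf4, at -0.97 here, was called without C1C3b replicate 2 (-1.05) or C1+14 replicate 1 (-1.24), and Ppp1r15a, at 0.90, without C1C3b replicate 2 (1.03). C1C3c had 1 called, beside 7.83%, which was Xbp1 at -1.20 (adjusted p 0.00435), lost without C1C3c replicate 2 (-0.84). Atf4, at -0.49, was called without C1C3c replicate 1 (-1.03), and Sesn2, at -0.99, without C1+14 replicate 2 (-1.09). FL against C1+14 had 7 called, beside 39.9%, with Ppp1r15a, Asns and Chac1 higher and Trib3, Sesn2, Xbp1 and Ddit3 lower. None of the 3 higher genes was called with total read scaling: Ppp1r15a went from 1.52 to 0.27, Asns from 1.33 to 0.08 and Chac1 from 2.64 to 1.49. Quantile scaling gave 0.06 for Asns. Xbp1 was thus called lower than C1+14 in FL and in the 3 chimeras. Without FL replicate 1, Ddit3 in FL was at -1.0 and no longer called, and without C1+14 replicate 1, Atf4 in FL, at -0.84 in the full fit, was called at -1.12. Total read scaling gave 0 higher and 7 lower for FL, and 1 higher and 4 lower for C1C3a. In C1C3a, Atf3 turned to -0.024 and Sesn2, at 0.09 with the authors' scaling, to -1.05. The medians of all genes with total read scaling were -1.11 for FL and -0.94 for C1C3a.

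The deletion table shows the same genes against FL. Atf4 had 1031 and 1096 normalised reads in FL on this table's scale and 1287 and 1684 in C12345delt14. It had 7548 and 4563 in deltC12345+14, and 4905 and 7035 in deltC12345delt14. The 4 libraries without C12345 were above the 4 with it. Relative to FL the log2 fold change was 2.46 in deltC12345+14 (SE 0.27, limma adjusted p 0.000351) and 2.47 in deltC12345delt14 (SE 0.27, adjusted p 0.000317).

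Trib3 and Ddit3 were also highest in the constructs without C12345. Trib3 had 48.9 and 127 normalised reads in FL, 158 and 212 in C12345delt14, 1473 and 633 in deltC12345+14, and 624 and 1193 in deltC12345delt14. Ddit3 had 74.3 and 131, 112 and 73.0, 953 and 566, and 410.4 and 913 in the same order. For both genes the libraries lacking C12345 were all above the rest. Trib3 rose by 3.6 in deltC12345+14 (adjusted p 0.00149) and 3.44 in deltC12345delt14 (adjusted p 0.00171), and Ddit3 by 2.88 (adjusted p 0.00189) and 2.62 (adjusted p 0.00271).

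Xbp1 had 498 and 521 normalised reads in FL, 596 and 934 in C12345delt14, 1520.5 and 1454 in deltC12345+14, and 1657 and 2067 in deltC12345delt14. Sesn2 had 1147 and 1474, 2348 and 2329, 3533 and 4025, and 3738 and 4387. For both genes C12345delt14 lay between FL and the constructs without C12345, with no overlap. Xbp1 rose over FL by 1.54 and 1.86 in the constructs without C12345, and Sesn2 by 1.54 and 1.64, all 4 called.

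Asns and Ppp1r15a ran the other way. Asns had 30949 and 33011 normalised reads in FL, 28976 and 21757 in C12345delt14, 16123 and 12829 in deltC12345+14, and 12844 and 15506 in deltC12345delt14. It fell by 1.15 and 1.18 in the constructs without C12345, but total read scaling gave 0.063 and -0.01. Without deltC12345+14 replicate 2 the first of these falls was -0.99, under the threshold. Ppp1r15a had 1995 and 1864 in FL, 970.5 and 1038 in C12345delt14, 708 and 631 in deltC12345+14, and 717 and 794 in deltC12345delt14. It fell by 1.53 and 1.35 in the constructs without C12345 (adjusted p 0.000159 and 0.00027), and total read scaling gave -0.31 and -0.18, not called. The difference of -0.94 in C12345delt14 was just under the threshold (SE 0.14, adjusted p 0.0444).

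The remaining genes differed little or varied much. Hspa5 had 11543 and 12455 normalised reads in FL, 10690.1 and 11144 in C12345delt14, 10734 and 12416 in deltC12345+14, and 11258 and 12216 in deltC12345delt14. The C12345delt14 libraries lay below those of FL and of deltC12345delt14, and the other groups overlapped. The widest difference between means was 0.14 on the log2 scale, but total read scaling gave 1.16 for deltC12345+14 and 1.14 for deltC12345delt14. Atf3 had 21.7 and 22.3 in FL, 1.14 and 11.5 in C12345delt14, 72.9 and 68.2 in deltC12345+14, and 52.5 and 97 in deltC12345delt14. Its differences of 1.63 and 1.65 from FL did not pass (adjusted p 0.112 and 0.108). They passed with total read scaling (2.81 and 2.78), a pseudocount of 8 (1.39 and 1.41), DESeq2 or only the compared groups fitted. Chac1 had 38.1 and 112 in FL, 72.0 and 70.5 in C12345delt14, 340.1 and 34.5 in deltC12345+14, and 61.6 and 228 in deltC12345delt14, and all groups overlapped. The type A library was the higher one in both constructs without C12345.

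**Figure D3:**
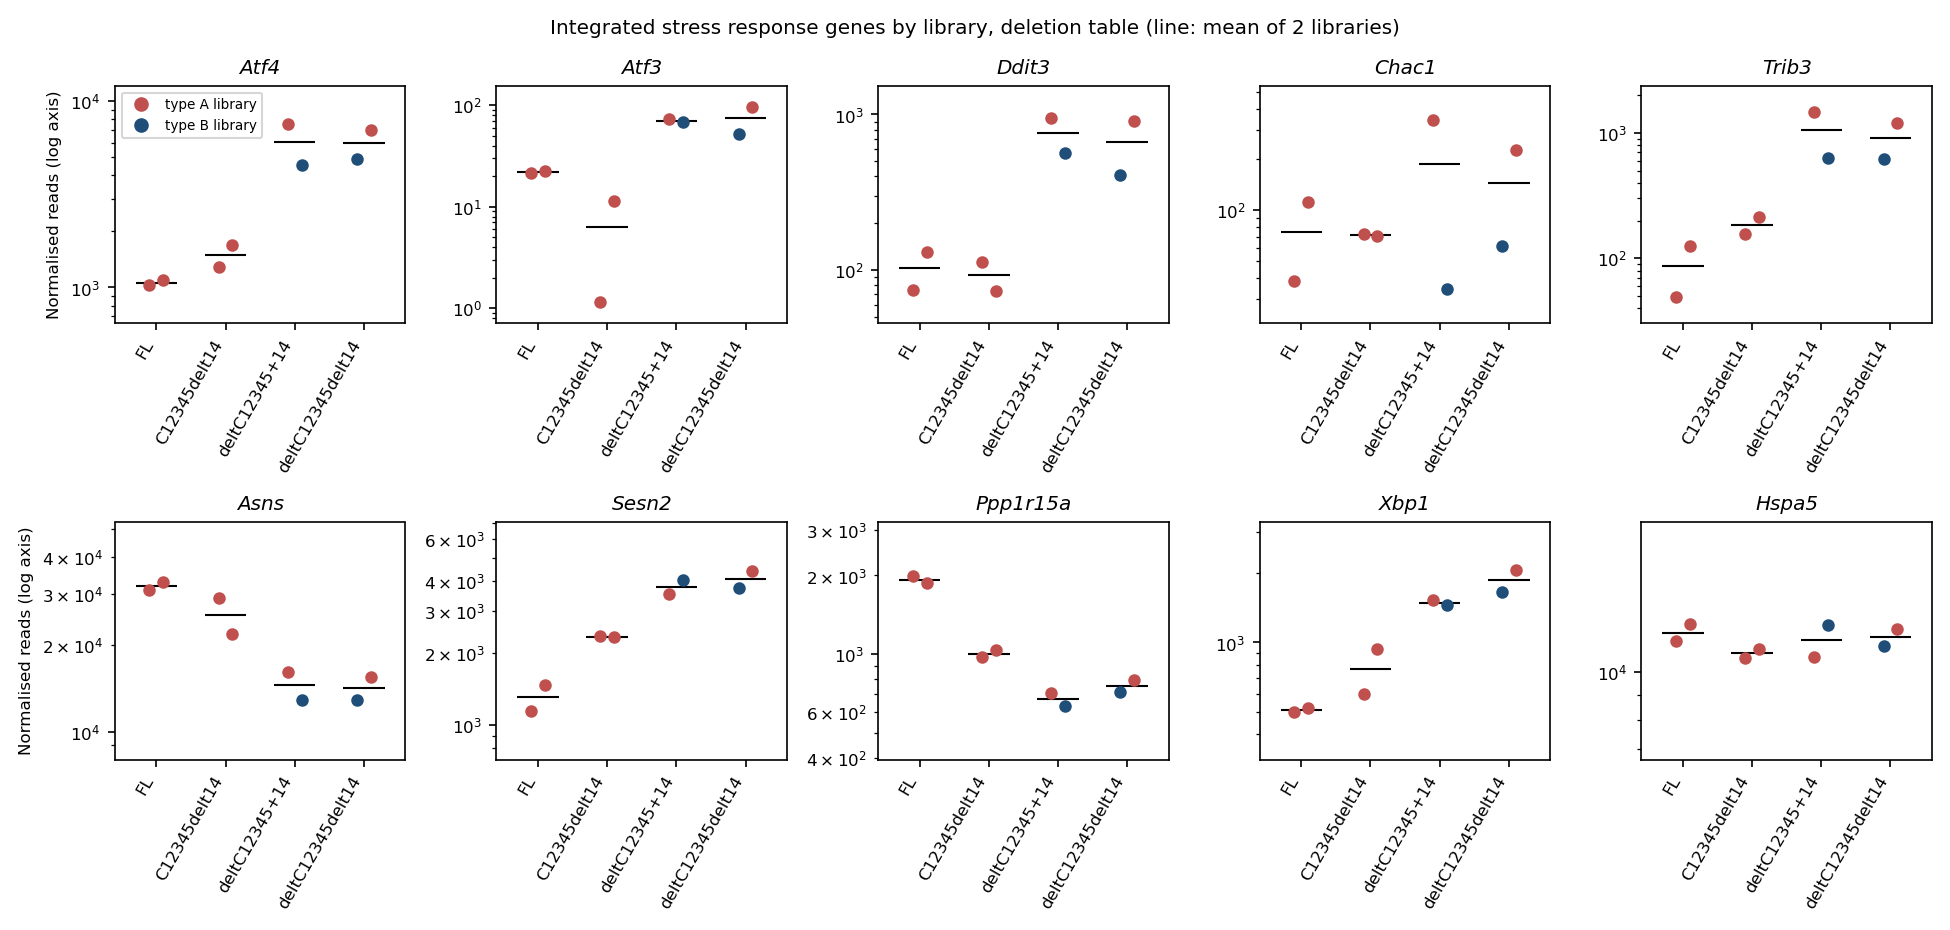
Normalised reads of the 10 genes (log axis) in the 8 libraries of the deletion table; points are libraries, coloured by library type, and lines are means of 2. Atf4, Ddit3, Trib3, Sesn2 and Xbp1 are higher in both constructs without C12345, and the type A library is the higher one for Atf4, at 7548 and 7035.

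In all, deltC12345+14 had 7 of 10 genes called against FL, beside 38.4% of all genes, with 5 higher and 2 lower, beside 18.4% and 20%. For deltC12345delt14 the count was also 7, beside 39.1%, with 5 higher and 2 lower, beside 18.8% and 20.3%. Total read scaling gave 7 higher and 0 lower in each, and moved the median of all genes to 1.11 and 1.05. With type A libraries alone, a choice made after seeing the data, Chac1 was at 2.36 and 1.79 against FL. Each of these constructs then has 1 library, so calls are not given. With library type as a covariate Chac1 was called, at 2.01 and 2.14. C12345delt14 had 0 called against FL, beside 0.958%, and 0 by edgeR or DESeq2. At an unadjusted limma p under 0.05 there were 4, beside 4935 of all 19833 genes tested. Without FL replicate 2, 1 was called, which was Sesn2 at 1.03 (adjusted p 0.0316). Against deltC12345delt14 it had 5 called, beside 22.0%: Atf3 (-3.81), Ddit3 (-2.75), Trib3 (-2.23), Atf4 (-2.00) and Xbp1 (-1.31). Without C12345delt14 replicate 1, 3 of these were left, with Trib3 at -2.02 (adjusted p 0.154) and Xbp1 at -0.99. Without deltC12345delt14 replicate 2, 3 were left as well, with Atf3 at -3.37 (adjusted p 0.056) and Trib3 at -1.76 (adjusted p 0.094). Without C12345delt14 replicate 2 the Trib3 call was lost (-2.44, adjusted p 0.0635), and Asns, at 0.83 in the full fit, was called at 1.04. Limma's F test called 8 of the 10, beside 39.1% of all genes; Chac1 and Hspa5 were not among them.

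Between deltC12345+14 and deltC12345delt14, which differ in the part named 14, 0 of the 10 genes were called, beside 0% of all genes. EdgeR and DESeq2 called 0 as well. At an unadjusted limma p under 0.05 there were 0, beside 543 of all 19833 genes tested. The 2 SE intervals were wide for the variable genes, from -2.25 to 2.00 for Chac1 and from -0.95 to 1.27 for Trib3, and narrow for Hspa5, from -0.28 to 0.24. Whether the effect of the part named 14 depended on C12345 was tested as an interaction, a contrast added after seeing the data. It was called for 0 of 19833 genes (0%), and among the 10 the smallest adjusted p was 0.268, for Ppp1r15a, with a difference of 1.12 (SE 0.20).

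Each of these 2 constructs has 1 library of each type, which allows a reading within a construct. Chac1 was 9.87 times higher in the type A library of deltC12345+14 and 3.70 times higher in that of deltC12345delt14. The ratios were 2.33 and 1.91 for Trib3, 1.68 and 2.22 for Ddit3, and 1.65 and 1.43 for Atf4. Hspa5 (0.865 and 1.09), Sesn2 (0.878 and 1.17) and Ppp1r15a (1.12 and 1.11) were close to equal. Over all genes, 6.85% were at least 2-fold higher in type A on average and 3.57% at least 2-fold lower. With 1 library of each type per construct no test was made. The mCherry libraries, in which Atf4, Chac1 and Trib3 were highest in their own table, are type B. The part of library type in those levels was not tested.

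**Figure D4:**
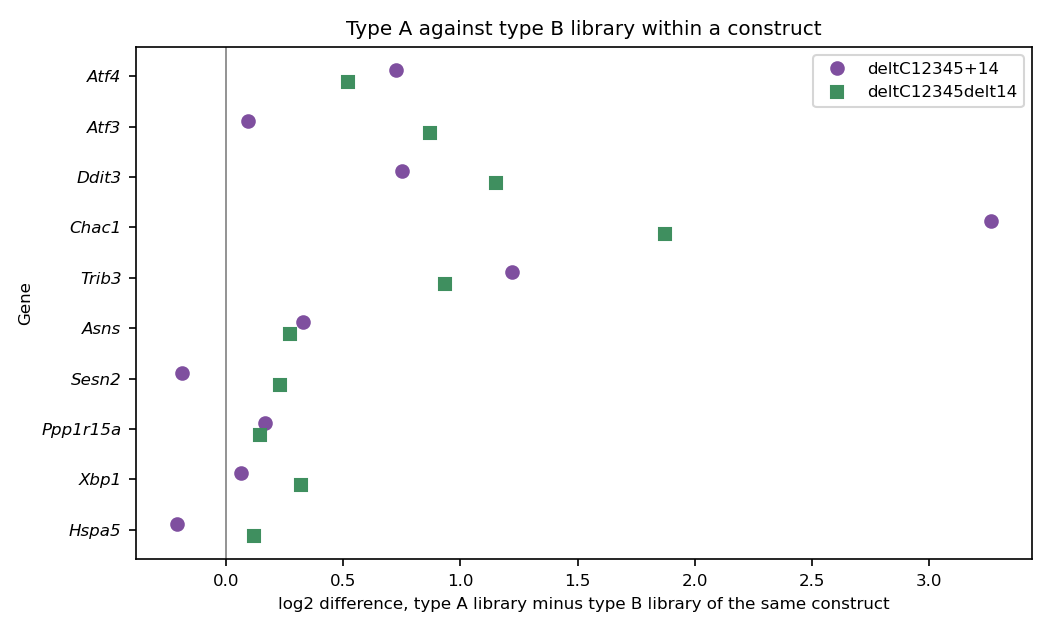
Log2 difference between the type A and the type B library for each of the 10 genes within deltC12345+14 and within deltC12345delt14. A pseudocount of 1 was used, each point is 1 pair of libraries, and the line marks equality. Chac1 stands highest, at 3.27 and 1.87.

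Replicates of 1 type also differed in these genes. FL replicate 2 had 2.89 times the Chac1, 2.54 times the Trib3 and 1.73 times the Ddit3 of replicate 1, whereas its Atf4 was 1.05 times as high. C1C3c replicate 1 had 4.79 times the Chac1, 2.10 times the Atf4 and 2.07 times the Trib3 of replicate 2.

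Other genes of the pathway were counted in 5 lists, beside 24.5% of all genes called higher and 19.6% called lower in FL than in mCherry. Of 14 tested stress effectors, genes for growth arrest, secreted stress signals and cell death, 1 was higher and 6 lower in FL than in mCherry, with a median of -0.61. The mediator of p53-dependent death Bbc3 had 19.2 and 76.2 normalised reads in FL and 533 and 532 in mCherry, a fall of 3.76 (log2 units, SE 0.55, limma adjusted p 5.91e-05). The secreted stress factor Gdf15 had 10.3 and 35.7 against 143 and 157, a fall of 2.89 (adjusted p 0.00134). Vldlr, the lipoprotein receptor, had 53.0 and 154 against 44.2 and 30.9, a rise of 1.27 (adjusted p 0.0113). Total read scaling gave 0 higher and 11 lower, so Vldlr was not called there. The median of all genes was -0.87 with that scaling. Within the deletion table, 8 of these 14 were higher and 0 lower in deltC12345+14 than in FL, beside 18.4% and 20% of all genes. In deltC12345delt14 the counts were 9 and 0, beside 18.8% and 20.3%, and Bbc3 was at 3.76 and 4.08 in the 2 constructs. Total read scaling, which moved the median of all genes to 1.11 for deltC12345+14, gave 11 and 13 higher and 0 lower. The FL libraries enter both tables, so these are not separate repeats.

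Of 20 ATF4-linked amino acid genes, 7 were higher and 3 lower in FL than in mCherry, beside 24.5% and 19.6% of all genes, with a median of 0.30 beside 0.09 for all genes. The share that was lower is near that of all genes. Phgdh, the first enzyme of serine synthesis, had 6429.7 and 7243 normalised reads in FL and 1768 and 1811 in mCherry, a rise of 1.93 (SE 0.17, adjusted p 4.95e-07). Aldh18a1, an enzyme of proline synthesis, had 3595 and 3302 against 1143 and 1107, a rise of 1.61 (adjusted p 2.54e-06). Of the amino acid transporters, Slc38a2 had 75.1 and 168 against 1887 and 1939.5, a fall of 4.08 (SE 0.29, adjusted p 8.1e-08). Slc7a1 had 544 and 656 against 3265 and 3394, a fall of 2.48 (adjusted p 3.27e-06). Slc38a2 and Slc7a1 were also called lower in C3+14, C1C3a, C1C3b and C1C3c, and neither was in C1+14. Total read scaling gave 0 higher and 9 lower for this list in FL, and TMM 2 and 4. The medians of all genes were -0.87 and -0.04 with these scalings.

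Of 13 tRNA synthetases and export factors, 2 were higher and 0 lower in FL: Mars1, with 8087 and 8012 normalised reads against 3616 and 3735 (1.13, adjusted p 5.67e-06), and Aars, with 22359.7 and 21404 against 10541 and 11053 (1.02, adjusted p 0.000103). Mars1 is the gene that overlaps Ddit3 on the opposite strand. TMM and quantile scaling left 0 of the 13 called. Of 15 genes for eIF2 kinases and translation control, 1 was higher and 1 lower in FL. Eif2b5, a subunit of the exchange factor for eIF2, had 12939 and 11611 against 5465 and 5568 (1.15, adjusted p 3.76e-06). Ppp1r15b, the constitutive partner of Ppp1r15a, had 507 and 526 against 2441 and 2441 (-2.24, adjusted p 4.19e-08), so the paralogs lay on opposite sides of mCherry with the authors' scaling. In C3+14, 4 of the 15 were higher and 1 lower, beside 29.6% and 17.7% of all genes. Total read scaling gave 0 and 5 there, with a median of all genes of -0.52.

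Of 24 genes for chaperones and degradation in the endoplasmic reticulum, 0 were higher and 4 lower in FL than in mCherry, with a median of -0.28. The share called lower is near the 19.6% of all genes. Herpud1, which organises that degradation, had 56.0 and 73.8 normalised reads against 322 and 303 (-2.26, adjusted p 4.95e-05), and the ubiquitin ligase Syvn1 had 228 and 265 against 763 and 740.3 (-1.61, adjusted p 1.05e-06). C1C3b had 4 higher and 3 lower, beside 27.6% and 17.1% of all genes, and the other 4 constructs had 1 to 4 called, beside 18.3% to 47.3%. Total read scaling raised the number called in FL from 4 to 19, all lower, and moved the median of all genes to -0.87.

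**Figure D5:**
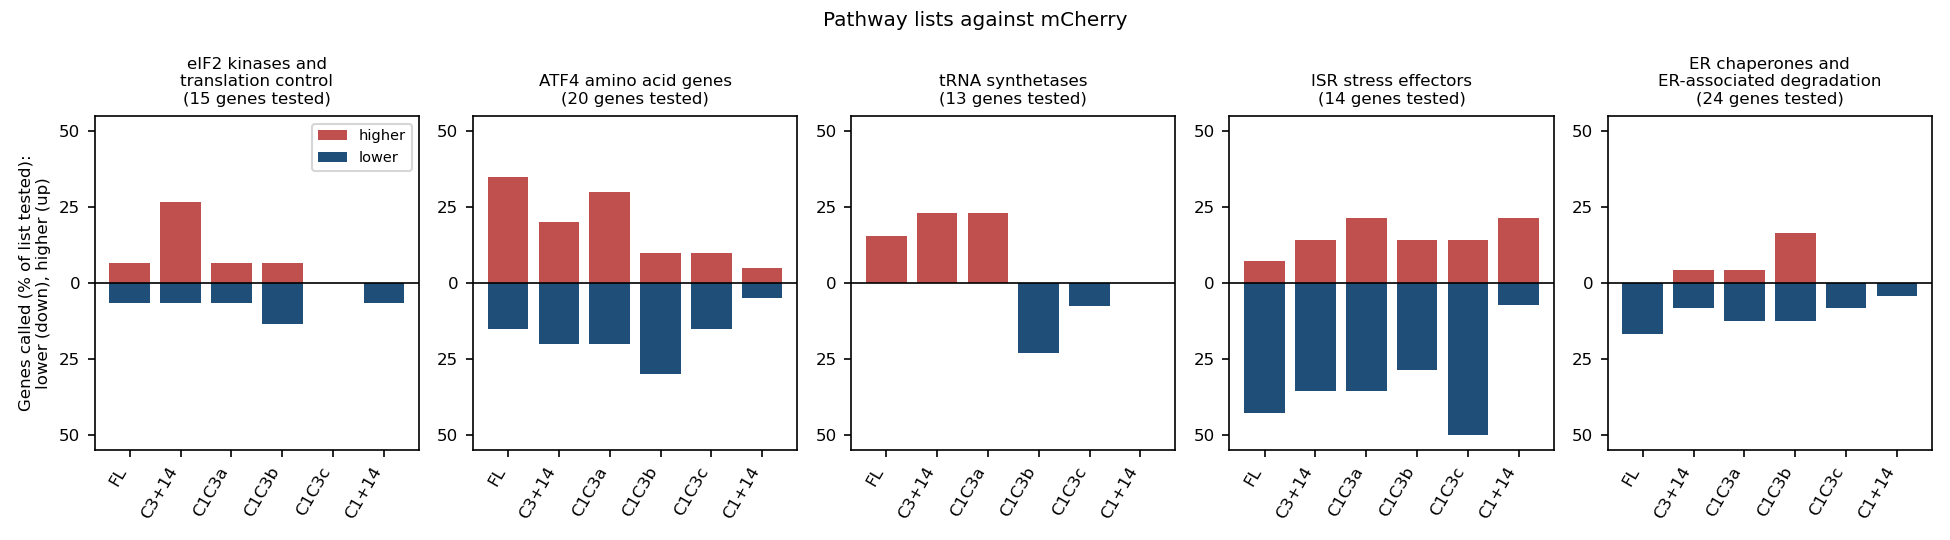
Percentage of the tested genes in each of the 5 pathway lists called higher or lower than mCherry by limma, by construct. Bars above the line are genes called higher and bars below it genes called lower. Of 14 stress effectors 6 are lower and 1 higher in FL, and of 20 amino acid genes 7 are higher and 3 lower.

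The genes whose levels were most like Atf4 over the 14 libraries of the chimera table were Dancr (Pearson r 0.961), Troap (0.951) and Cdc6 (0.935), out of 13517 genes with a mean of at least 50. Dancr averaged 558 normalised reads in mCherry and 87.2 in FL. Most like Hspa5 were Ifrd1 (0.945), Rchy1 (0.916) and Tbx18 (0.910). Ifrd1 averaged 3046 in C3+14, 2188 in C1C3b and 282 in FL. Among the 10 genes themselves, Atf4 had an r of 0.81 with Xbp1, 0.72 with Trib3 and 0.66 with Chac1, but -0.13 with Asns and -0.09 with Ppp1r15a. These values describe libraries that share group, library type and scaling.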

How the data were processed

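Poly(A) RNA of 20 libraries in 10 groups of 2 was analysed. C3delt14, the remaining group of the 11 listed, was not analysed here. Per the submitters' processing notes, the authors used Trim Galore 0.5.0, FastQC, DESeq2 and the build mm10. The aligner and counter are not given in the sources used here. The deposited values are a signal, gene counts divided by 1 size factor per library: 100% of 1220714 values were whole reads, within 1e-06, after undoing that factor. The FL counts differed between the tables at 0 genes.

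A gene was tested where 2 or more libraries reached a value of 10, 21584 in the chimera and 19833 in the deletion table, and all 10 members passed in both. Limma 3.58.1 (R 4.3.3; lmFit, eBayes with a trend) was fitted to log2(value + 1) with all groups of a table sharing the spread. Fold changes are on that scale, which understates changes of low genes. Calls needed a Benjamini-Hochberg adjusted p under 0.05 over all genes tested and a log2 fold change of 1 or more in either direction. An exact permutation test of 2 against 2 cannot go below 0.333. The fit was tested on simulated data. Intervals are 2 SE.

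The 10 members are named throughout. From each list up to 2 genes higher and 2 lower in FL than in mCherry are named, taking the called genes that changed most, provided that the higher group averaged 50 or more and that the 2 groups' libraries did not overlap. Likeness was taken over genes averaging 50 or more. Members and lists were chosen with earlier results of these data known. Alternatives were pseudocounts of 0.1 and 8, no filter, quantile, TMM and total read scaling, edgeR 4.0.16 and DESeq2 1.42.0 on the recovered reads, fits of only the compared groups, a replicate block, library type as a covariate, and leaving out each library.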

Additional observations from a re-analysis of the deposited data

How the results depend on the processing

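With 2 libraries per group, calls near the thresholds often changed, and scaling also ended calls far from them, such as Asns for C1C3a against C1+14 (1.92, and 0.55 with quantile scaling). Depth limits Atf3 and Chac1, which had few reads. Of 1710 values of single genes under alternatives other than leaving out a library, 1605 kept their side of the threshold and direction, 55 newly passed, 44 no longer passed and 6 reversed. Of 640 with 1 library left out, 597 kept, 15 newly passed and 28 no longer passed. A further 128 values that were called in neither fit changed sign and are counted as kept. The reversals were, under total read scaling, Atf3 (-0.024) and Sesn2 (-1.05) for C1C3a against C1+14, Asns (0.063) and Hspa5 (1.16) for deltC12345+14 against FL and Hspa5 (1.14) for deltC12345delt14 against FL, and under quantile scaling Asns (0.071) for deltC12345+14 against FL. The cause was not tested. The number of members called for C1C3a against C1+14 went from 5 to 3 with quantile scaling or with only the compared groups fitted, and was 3 to 5 with a library left out. For C1C3c against C1+14 it went from 1 to 2 with quantile, TMM or total read scaling and with edgeR, to 0 with only the compared groups fitted, and was 0 to 2 with a library left out. For C3+14 against FL it went from 5 to 8 with edgeR. For C1C3b against C1+14 it went from 2 to 1 with only the compared groups fitted, and was 1 to 4 with a library left out. For C12345delt14 it was 0 to 1 against FL and 3 to 5 against deltC12345delt14 with a library left out, beside 0 and 5. The replicate block changed no number of members called: it gave 7 for FL, 7 for C3+14, 5 for C1C3a, 4 for C1C3b, 4 for C1C3c and 2 for C1+14 against mCherry. Deviations of same-numbered libraries were little shared, with correlations between -0.10 and 0.14. The exception was -0.57 between deltC12345+14 and deltC12345delt14, whose types are crossed. These values cannot tell whether the samples were prepared in pairs. A block with crossed numbers, added after seeing the data, called 0 members between those constructs. Scaling moved the median log2 difference of all genes by over 0.1 in most comparisons, for example to -0.27 with quantile scaling for FL against mCherry and to 1.11 with total read scaling for deltC12345+14 against FL.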
